A study of Mus musculus with 2 samples.

Results

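Metallothioneins and zinc transporters are the genes described here: the metallothioneins Mt1, Mt2 and Mt3, the exporters Slc30a1, Slc30a3 and Slc30a10, and the importer Slc39a14. They were taken by gene symbol, and all 7 were found among the 19070 genes of the count tables. Transcripts were counted by Visium HD, in which probe pairs bound to fixed tissue are read as unique molecular identifiers (UMIs) on a grid of 16 µm bins. The groups were CCI 3 days and CCI 28 days, each with 1 coronal section of the brain of 1 male C57Bl6 mouse aged 3 months, perfusion-fixed and embedded in paraffin. CCI is controlled cortical impact, a piston injury to the exposed cortex of a single hemisphere, and the labels name no other treatment for either group. No section from an uninjured animal was analysed here, so each section was compared with its own opposite side, and animal and time after injury cannot be told apart.

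Metallothioneins are small cysteine-rich proteins that bind zinc and copper inside the cell. Mt1 and Mt2 are made mainly by astrocytes in the brain and are known to be induced by zinc, through the zinc-sensing factor MTF-1, and by glucocorticoids and injury, whereas Mt3 is the brain-enriched form and responds little to metals. Transporters of the Slc30 family (ZnT) move zinc out of the cytosol, and those of the Slc39 family (Zip) move it in. Among them Slc30a1 (ZnT1) exports zinc across the plasma membrane, Slc30a3 (ZnT3) loads zinc into the synaptic vesicles of forebrain glutamatergic neurons, Slc30a10 (ZnT10) exports manganese, and Slc39a14 (Zip14) takes up zinc, iron and manganese and is induced by inflammation in the liver.

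Mt3, Mt2 and Mt1 lie in that order within 27721 bases of chromosome 8 in the RefSeq annotation of GRCm38.p6, at chr8:94152607-94154148, chr8:94172618-94173567 and chr8:94178883-94180327. The transporters lie at chr1:191906697-191913248 (Slc30a1), chr1:185454848-185468762 (Slc30a10), chr5:31086106-31108244 (Slc30a3) and chr14:70303467-70351452 (Slc39a14). The metallothionein promoters, also from RefSeq, are shown as a description of the sequence. The windows are chr8:94178839-94179138 for Mt1, chr8:94172368-94172667 for Mt2 and chr8:94152357-94152656 for Mt3, all on the plus strand, from 250 bases before to 50 bases after a transcript start, which for Mt1 lies downstream of the first base of the annotated gene. Capitals mark the core of the metal response element bound by MTF-1, searched as TGCACNC and TGCGCNC on both strands.
Mt1: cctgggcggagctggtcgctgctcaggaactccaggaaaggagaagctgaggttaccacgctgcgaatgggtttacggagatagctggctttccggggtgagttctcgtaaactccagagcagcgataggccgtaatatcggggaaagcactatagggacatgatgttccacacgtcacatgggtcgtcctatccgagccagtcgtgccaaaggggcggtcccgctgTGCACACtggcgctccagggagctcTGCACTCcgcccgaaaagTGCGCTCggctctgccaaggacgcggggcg
Mt2: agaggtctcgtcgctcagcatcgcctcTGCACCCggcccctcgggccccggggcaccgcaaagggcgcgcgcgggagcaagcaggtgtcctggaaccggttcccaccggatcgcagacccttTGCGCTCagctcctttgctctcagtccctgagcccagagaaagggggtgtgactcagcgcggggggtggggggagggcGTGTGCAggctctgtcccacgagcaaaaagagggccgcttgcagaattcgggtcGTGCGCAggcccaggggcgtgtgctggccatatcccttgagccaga
Mt3: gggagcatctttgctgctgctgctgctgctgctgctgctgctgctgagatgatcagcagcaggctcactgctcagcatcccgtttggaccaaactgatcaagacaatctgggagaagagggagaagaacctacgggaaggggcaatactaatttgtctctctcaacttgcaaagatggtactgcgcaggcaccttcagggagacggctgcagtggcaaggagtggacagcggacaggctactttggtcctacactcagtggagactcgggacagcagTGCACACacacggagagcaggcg
The Mt1 window held 3 matches, the Mt2 window 4 and the Mt3 window 1. Of 32851 promoters of the same length, 25.7% held at least 1 match, 1.97% at least 3 and 0.517% at least 4. The Slc30a1 window held 2 matches and the Slc30a10 window 3, of which 2 overlap on opposite strands. One of the 2 Slc30a3 windows held 1 match and the other held none, and Slc39a14 had no entry in the table. The Mt1 matches at bases 253 to 259 and 271 to 277 of the window lay after the transcript start. So did the Mt2 match at 255 to 261 and the Mt3 match at 278 to 284. These are matches of letters, not measured binding, and whether they bear on the levels of any member was not tested.

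The injured side lay below bin column 130 at 3 days and below column 240 at 28 days. A lesion zone was drawn on it from 6 phagocyte genes (Cd68, Lyz2, Ctsz, Lgals3, Cd52 and Laptm5), so genes of phagocytes are high there by construction, and its reflection on the opposite side served as the mirror zone. The zone covered 2.18 mm2 (8522 bins) at 3 days and 3.47 mm2 (13559 bins) at 28 days. At 3 days it reached the edge of the array, which held 2.08 mm of the injured side and 4.62 mm of the opposite side. The sections held 120615873 and 82422389 UMIs, with medians of 836 and 596 per bin, and zone bins were shallower than mirror bins (607 against 937 UMIs at 3 days, 528 against 642 at 28 days).

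Levels are given as CPM, the gene's UMIs per 1000000 UMIs of the same area, and differences as log2 ratios of CPM with 95% intervals. The intervals cover counting error only and leave out the spread between animals, so no p-value is given. A bin can hold parts of several cells, and fewer cells of a type cannot be told apart from less RNA per cell. Levels of different genes are not compared, because genes differ in their probes. Where Mt1 UMIs are given per Mt2 UMI, only the change between areas is read. Genes of other organs, taken as a floor for probe noise, were at no more than 1.41 CPM.

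Mt1 and Mt2, the metallothioneins that respond to injury, were far higher in the lesion zone than in its mirror image at both times. On day 3 Mt1 stood at 3496 CPM in the lesion and 1297 CPM opposite (log2 ratio 1.43, interval 1.40 to 1.47), and on day 28 at 5987 and 1194 CPM (2.33, interval 2.29 to 2.36). Mt2 stood at 2370 and 624 CPM on day 3 (1.93, interval 1.88 to 1.97), and at 3284 and 440 CPM on day 28 (2.90, interval 2.85 to 2.95). In fold terms Mt1 was 2.70-fold and 5.01-fold higher at 3 and 28 days, and Mt2 3.80-fold and 7.46-fold.

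Mt3, the brain form, was higher by less. Its levels were 2041 and 1310 CPM on day 3 (0.64, interval 0.60 to 0.68), and 2525 and 1306 CPM on day 28 (0.95, interval 0.92 to 0.99). Counted per bin with no scaling, the Mt3 ratio was 0.014 on day 3 and 0.67 on day 28, so the higher CPM of day 3 went with fewer UMIs of all genes per bin. Mt1 and Mt2 stayed higher per bin, by 0.80 and 1.30 on day 3 and 2.04 and 2.62 on day 28.

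**Figure D1:**
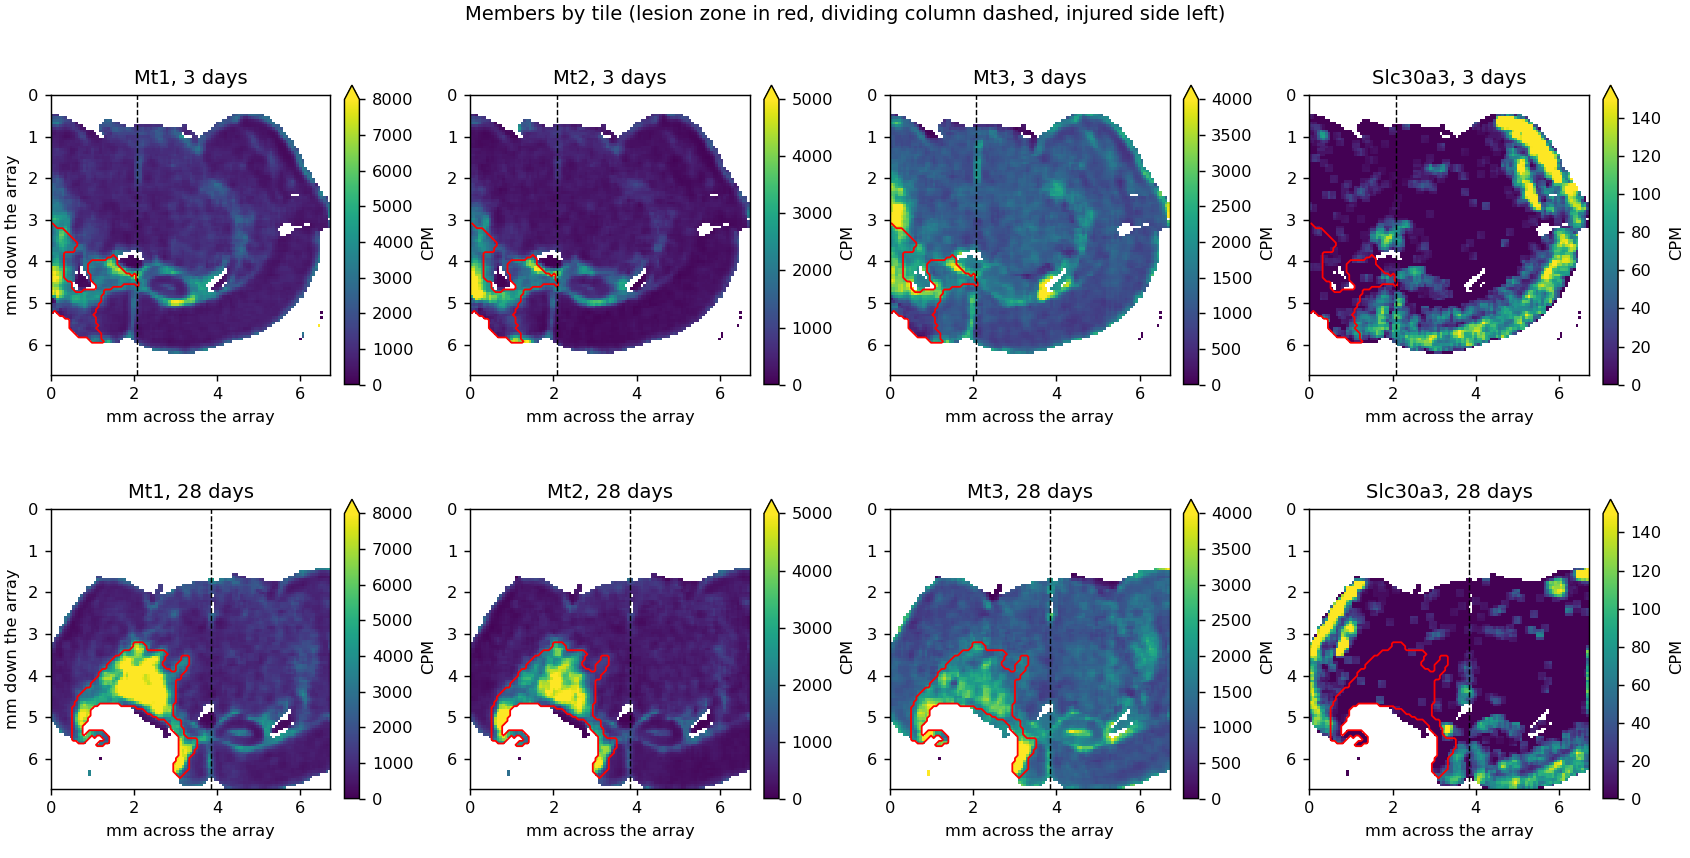
Maps of Mt1, Mt2, Mt3 and Slc30a3 in CPM (colour) over the section at 3 days and at 28 days, averaged over neighbouring tiles of 64 µm; both axes are distances on the array in mm, the red outline is the lesion zone and the dashed line the dividing column, with the injured side on the left. White is off the tissue, including the cavity below the lesion at 28 days. Mt1 and Mt2 are brightest in and beside the zone, Mt3 stands out less, and Slc30a3 marks cortex and hippocampus and is sparse in the zone.

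Slc30a1, the exporter of the plasma membrane, was somewhat higher in CPM. It was at 48.1 and 32.8 CPM on day 3 (0.55, interval 0.30 to 0.81) and 51.8 and 43.3 CPM on day 28 (0.26, interval 0.044 to 0.47). Per bin these ratios turned to -0.071 and -0.023, so the direction depends on the scaling.

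Slc30a3, which fills synaptic vesicles with zinc, was lower in the lesion. On day 3 it was at 10.4 CPM there (54 UMIs) and 37.7 CPM opposite (300 UMIs; -1.84, interval -2.30 to -1.43). On day 28 it was at 5.73 CPM (41 UMIs) and 9.39 CPM (75 UMIs; -0.70, interval -1.30 to -0.14). Against the whole opposite side the day 28 ratio was -2.47 (-2.97 to -2.04), and -1.80 (-2.93 to -0.90) in zone bins whose mirror bin lay over tissue. The neuron markers Snap25, Syt1, Rbfox3, Stmn2 and Nrgn were lower in the same zones, at log2 ratios of -1.88 and -1.40 for their sum, and their part in the result was not tested. The mirror zones differed in anatomy. Tiles of cortical layer 5, layer 6 and CA3 made up 9.60%, 7.66% and 15.8% of the mirror zone on day 3. On day 28 they made up 3.09%, 0.771% and 4.88%. Tiles of the dentate granule cell layer made up 4.33% on day 3 and 0% on day 28. The part of this anatomy in the ratios of any member, and in their differences between the times, was not tested.

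Slc30a10, the manganese exporter, was also lower, on few UMIs. It was at 7.73 and 11.7 CPM on day 3 (40 and 93 UMIs; -0.58, interval -1.17 to -0.045) and 13.7 and 21.3 CPM on day 28 (-0.63, interval -1.01 to -0.27). With a looser or a stricter limit for the zone the day 3 interval held 0 (ratios -0.11 and -0.70). Striatum, where Slc30a10 was high, made up 8.07% of the zone and 0% of the mirror zone on day 3. On day 28 it made up 3.07% and 10.4%, and its part in the ratios was not tested. Slc39a14, the importer, was higher, at 71.7 and 50.8 CPM on day 3 (0.50, interval 0.29 to 0.70) and 85.5 and 42.6 CPM on day 28 (1.01, interval 0.81 to 1.20). Per bin Slc39a14 was at -0.13 on day 3 and 0.72 on day 28, so the day 3 direction depends on the scaling. Its day 3 ratio was 1.02 (0.86 to 1.18) against the whole opposite side and 1.88 (0.75 to 3.66) within white matter tiles.

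By the rule of an at least 2-fold difference with an interval that excludes no difference, 2 of 7 members were higher (Mt1 and Mt2) and 1 was lower (Slc30a3) at 3 days. Among the 13570 genes that had 20 or more UMIs in lesion and mirror zone together, 17.3% were higher and 8.47% lower by this rule. At 28 days 3 of 7 were higher (Mt1, Mt2 and Slc39a14, the last just past the limit at 2.01-fold) and none was lower against the mirror zone, beside 16.3% and 8.05% of 13619 genes. The median log2 ratio of the members was 0.55 and 0.95 at the 2 times, beside 0.14 and 0.00014 over all genes tested.

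The ratios of Mt1, Mt2, Mt3 and Slc39a14 were larger in the later section. Day 28 minus day 3, on the log2 scale, was 0.89 (0.85 to 0.94) for Mt1, 0.97 (0.90 to 1.04) for Mt2, 0.31 (0.26 to 0.36) for Mt3 and 0.51 (0.23 to 0.79) for Slc39a14. For Slc30a1 and Slc30a10 the intervals held 0, at -0.30 (-0.62 to 0.032) and -0.049 (-0.69 to 0.59). Slc30a3 gave 1.14 (0.45 to 1.82), but its lesion level was lower on day 28 than on day 3 and its mirror level differed more. Against the whole opposite side the differences were smaller for the metallothioneins, at 0.63 (0.60 to 0.66) for Mt1, 0.36 (0.31 to 0.40) for Mt2 and 0.18 (0.14 to 0.21) for Mt3, and at 0.27 (0.069 to 0.48) for Slc39a14. On that reference the Slc30a3 difference was -0.037 (-0.63 to 0.55). With 1 section per time, none of these was tested against the spread between animals.

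**Figure D2:**
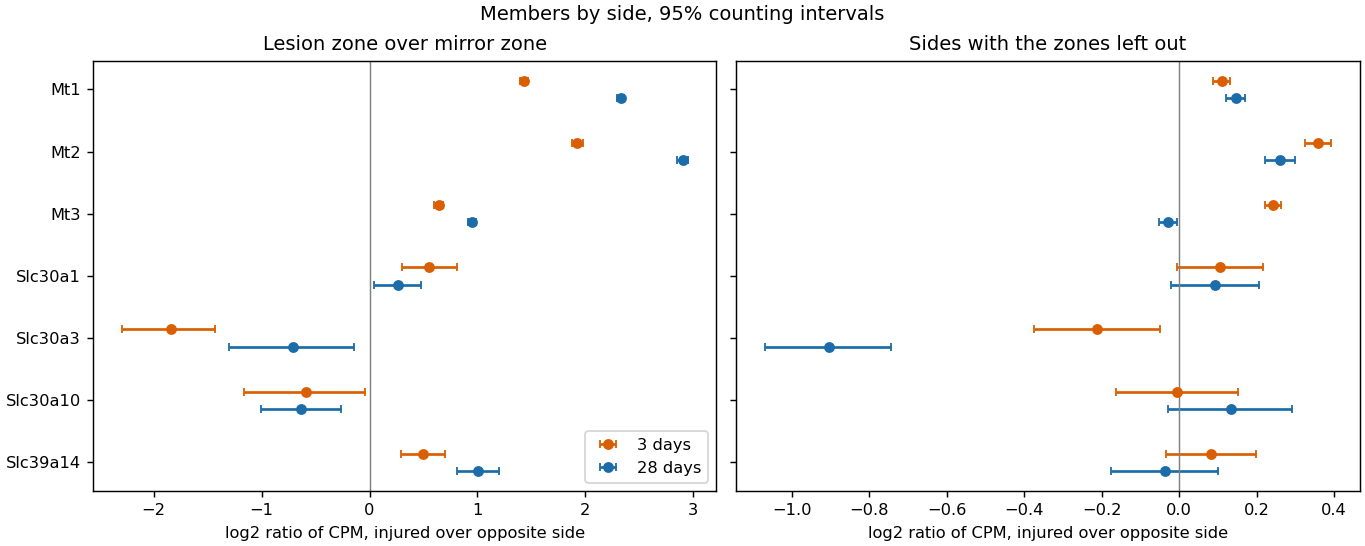
Log2 ratio of CPM, injured over opposite, for each member at 3 days (orange) and 28 days (blue): lesion zone over mirror zone on the left, and both sides at equal distances from the dividing column without the zones on the right, on a different scale. Points are ratios and bars 95% counting intervals; Mt1 and Mt2 have the highest ratios in the zone, while Slc30a3 and Slc30a10 lie below 0 there.

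The balance between Mt1 and Mt2 differed between the lesion and its mirror zone. It also differed between regions of the opposite side, by the regional levels given below. The regional mix of the zones was not matched, and its part in the balance was not tested. On day 3 there were 2.08 Mt1 UMIs per Mt2 UMI in the mirror zone and 1.48 in the lesion, and on day 28 2.72 and 1.82. The log2 ratio of Mt2 exceeded that of Mt1 by 0.50 (0.44 to 0.55) on day 3 and 0.57 (0.51 to 0.64) on day 28. Mt3 minus Mt1 was -0.79 (-0.84 to -0.74) and -1.37 (-1.42 to -1.33). Mt1 and Mt2 are close in sequence, and whether a probe of one takes up transcripts of the other was not tested.

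Much of the Mt1 and Mt2 on the injured side of the array lay in the lesion. The array held 2.08 mm of that side at 3 days, where the zone reached the array's edge, and 3.84 mm at 28 days. The values are thus not shares of the hemisphere and are not matched between the times. On day 3 the zone held 33.8% of the Mt1 UMIs and 43.1% of the Mt2 UMIs of that side, and 13.8% of all UMIs. On day 28 it held 59.3% and 66.5%, and 19.3% of all UMIs. Slc39a14 had 22.9% and 39.3% there, Mt3 19.5% and 34.3%, Slc30a10 5.66% and 12.2%, and Slc30a3 8.36% and 3.05%.

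Over tiles of 4 by 4 bins with at least 3000 UMIs, high Mt1 was spread through the zone. On day 28 the 791 zone tiles had a median of 5956 CPM (10th and 90th percentiles 2236 and 10772 CPM), and the 741 mirror tiles 1184 CPM (10th and 90th percentiles 567 and 2698 CPM). On day 3 the 515 zone tiles had 3367 CPM (10th and 90th percentiles 1159 and 6587 CPM) and the 508 mirror tiles 970 CPM (10th and 90th percentiles 362 and 4293 CPM), so the upper mirror tiles reached into the range of the lesion. Mt2 had medians of 2016 and 2869 CPM in the zone tiles of day 3 and day 28, against 374 and 425 CPM. Slc30a3 had no UMI in 92.8% and 96.2% of zone tiles, against 69.9% and 93.8% of mirror tiles.

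Mt1 and Mt2 were graded across the lesion edge. Depth inside was measured to the nearest tissue bin outside the zone, so bins beside a cavity or the array's edge can count as deep. On day 28 Mt1 was at 7665 CPM more than 250 µm inside the edge, 6792 CPM at 125 to 250 µm and 3275 CPM in the outermost 125 µm. It was at 1349 CPM in the first 250 µm outside and 987 CPM at 250 to 500 µm, where the mirrored band had 972 CPM. On day 3 Mt1 was flatter inside, at 3428, 3801 and 3306 CPM from the interior outwards, and then at 1801, 1074 and 977 CPM in the bands ending at 250, 500 and 1000 µm. Mt2 dropped most between the middle and outermost bands of the day 28 lesion, from 4263 to 1387 CPM.

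Around the lesion, Mt2 exceeded its mirrored bands further out on day 3 than on day 28. The day 3 log2 ratios were 1.05, 0.75, 0.43 and -0.23 in the bands ending at 250, 500, 1000 and 2000 µm, and the day 28 ratios 0.57, 0.14, -0.0062 and -0.30. Mt3 was at 0.69, 0.49 and 0.28 in the first 3 bands on day 3, and at 0.20, -0.017 and -0.10 on day 28. The sum of the astrocyte markers Aqp4, Aldh1l1, Slc1a3, Slc1a2, Gja1, S100b and Gfap moved with them, at 0.77, 0.67 and 0.50 on day 3 and 0.52, 0.17 and -0.12 on day 28, and the microglia and macrophage sum was at 0.89, 1.28 and 1.05 on day 3 and 1.65, 0.28 and 0.021 on day 28. The part of either in the result was not tested. On day 28 the bands take in injured bins beyond the reach of the opposite side on the array, so their tissue was not matched. In the band ending at 2000 µm on day 28 all 3 metallothioneins were below the mirrored band. The ratios were -0.33, -0.30 and -0.27 for Mt1, Mt2 and Mt3. Beside them the astrocyte sum was at -0.22, the microglia and macrophage sum at -0.054 and the neuron sum at 0.34. The part of such tissue differences was not tested.

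Slc30a3 was low deep inside the lesion. On day 3 it was at 5.25 CPM deep inside the lesion (6 UMIs), against 42.3 CPM in the mirrored band. The day 3 log2 ratios inside were -2.90, -2.79 and -0.99 from the interior outwards. In the first 250 µm outside Slc30a3 was at 16.4 against 34.4 CPM (-1.06, -1.42 to -0.72), and in the next band at 36.8 against 37.0 CPM. On day 28 it was at 1.5 CPM deep inside (4 UMIs, against 18 in the mirrored band; -1.83, -3.98 to -0.36), close to the floor of probe noise. In the other 2 bands inside the day 28 lesion the intervals held 0, with 14 against 16 UMIs at 125 to 250 µm (-0.49, -1.64 to 0.63) and 23 against 23 in the outermost 125 µm (0.13, -0.77 to 1.03). It was at 34.6 CPM in the first 250 µm outside against 35.7 CPM in the mirrored band. Slc39a14 was highest in the interior on day 28, at 109 against 45.7 CPM (1.24, 0.95 to 1.55), and was at 57.8 CPM in the outermost 125 µm. Slc30a10 was low in the same interior, at 9.77 against 24.7 CPM (-1.32, -2.04 to -0.68).

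**Figure D3:**
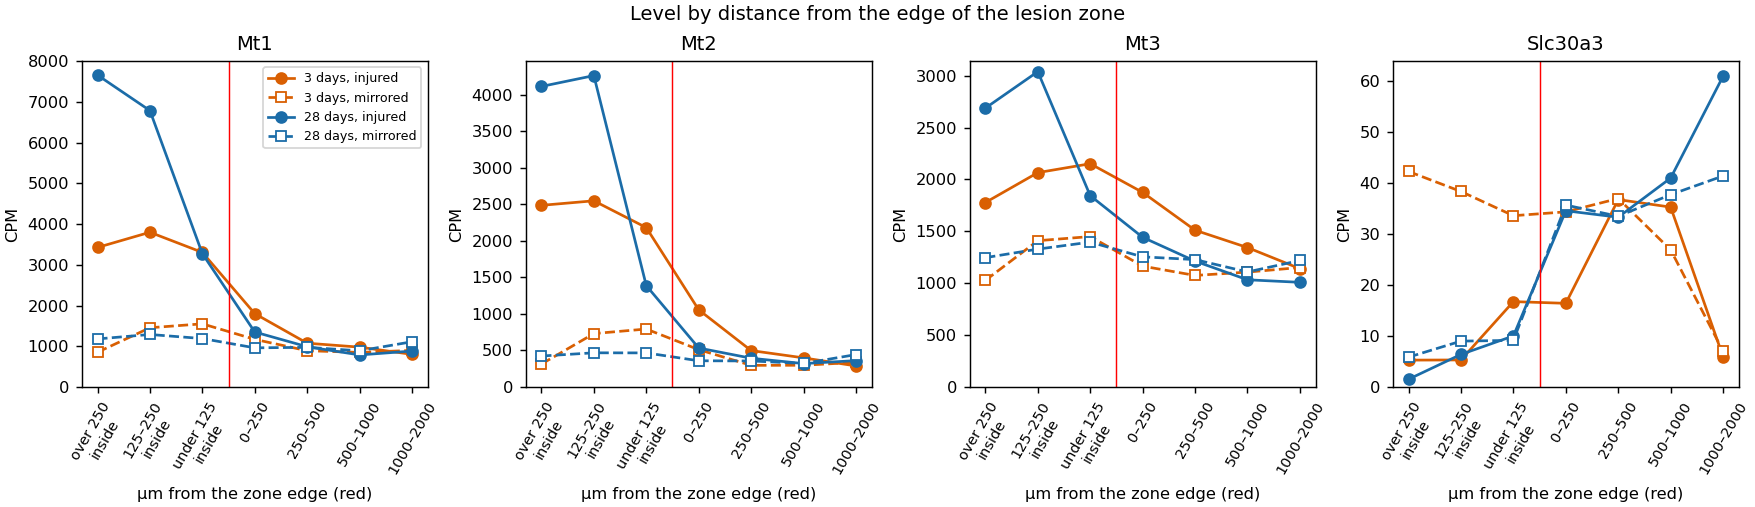
Level in CPM (linear axes) of members by distance band in µm from the edge of the lesion zone, inside and outside, at 3 days (orange) and 28 days (blue), for the injured side and the mirrored bands of the opposite side. On day 28 Mt1 and Mt2 come close to the mirrored level at 250 to 500 µm, while Mt2 on day 3 stays above it up to 1000 µm.

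With the zones left out, and bins taken at equal distances from the dividing column, differences between the sides were small for most members. At 28 days this trimmed the injured side to 2.86 of 3.84 mm. Mt2 was at 500 CPM beside the lesion and 390 CPM across the midline on day 3 (0.36, interval 0.32 to 0.39), and at 437 and 365 CPM on day 28 (0.26, interval 0.22 to 0.30). Mt1 had ratios of 0.11 and 0.15. Per bin the day 28 ratio of Mt1 turned to -0.096 and that of Mt2 was 0.020, so the day 28 difference outside the lesion depends on the scaling. Mt3 had ratios of 0.24 and -0.029. The intervals of Slc30a1, Slc30a10 and Slc39a14 held 0 at both times. Slc30a3 was at 18.3 and 21.2 CPM on day 3 (-0.21, interval -0.37 to -0.051) and 19.7 and 37.0 CPM on day 28 (-0.90, interval -1.07 to -0.74). The distance bands around the lesion are not trimmed. On day 28 they take in injured bins beyond the 2.86 mm held of the opposite side. Slc30a3 had log2 ratios of -0.045, -0.0073 and 0.12 in the day 28 bands ending at 250, 500 and 1000 µm. In the band ending at 2000 µm the ratio was 0.56 (0.36 to 0.76). The bands and the trimmed sides rest on different bins, so their ratios are not comparable. Outside the zones the astrocyte sum was at 0.38 and 0.053, the microglia and macrophage sum at 0.71 and 0.54 and the neuron sum at -0.31 and -0.61 on day 3 and day 28, and their part in the results was not tested.

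For a comparison of sides with the lesion included, bins at equal distances from the dividing column were set against each other, out to 2.08 mm at 3 days and 2.86 mm at 28 days. At 28 days this held 38739 of the 49478 bins of the injured side and 11915 of its 13559 zone bins, so the outer part of the side and of the lesion was left out. Mt1 stood at 1423 against 1069 CPM on day 3 (ratio 0.41) and 2129 against 1013 CPM on day 28 (1.07), and Mt2 had ratios of 0.79 and 1.33. Slc30a3 had ratios of -0.51 and -0.99. With all bins of both sides the day 28 ratio of Slc30a3 was 0.18 on an array that then held 3.84 mm of the injured side and 2.86 mm of the other.

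By anatomy, Mt1 and Mt2 on the opposite side were high in white matter and, on day 3, in the ependyma, the dentate layer and meningeal tiles. Tiles were given to regions by marker genes that included no member. White matter had 2334 CPM (2263 to 2406) of Mt1 on day 3 and 2092 CPM (2018 to 2169) on day 28, against 591 and 698 CPM in cortical layer 5 and 799 and 861 CPM in thalamus. Mt2 was at 971 and 744 CPM in white matter and 181 and 223 CPM in layer 5. Choroid plexus, the epithelium that secretes cerebrospinal fluid, had little Mt1 at 474 and 365 CPM. Its Mt3 was at 1843 and 1673 CPM, above the 952 and 1086 CPM of layer 5. The ependyma, the ciliated lining of the ventricles, had 3247 CPM (3079 to 3422) of Mt3 on day 3. Its Mt1 was at 2880 CPM (2722 to 3045) and its Mt2 at 1339 CPM (1232 to 1453) on that day, both above white matter, and meningeal tiles were at 2119 CPM (1979 to 2265) of Mt1 and 929 CPM (838 to 1028) of Mt2. On day 28 ependymal and meningeal tiles were given on the injured side only.

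The dentate granule cell layer of the opposite side differed between the sections. Mt1 was at 2829 CPM (2717 to 2944) there on day 3 and 1393 CPM (1295 to 1495) on day 28, and Mt2 at 1838 CPM (1748 to 1932) and 678 CPM (611 to 751), so the intervals do not overlap. Mt3 was at 1547 CPM (1464 to 1633) and 1621 CPM (1516 to 1731), with intervals that overlap. How many of all genes differ between the sections in these tiles was not counted, so the difference may not be particular to Mt1 and Mt2. In the same tiles the astrocyte sum was at 3991 and 2981 CPM and the sum of the microglia and macrophage markers at 1119 and 325 CPM, and their part in the difference was not tested.

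Slc30a3 was high in the upper cortical layers and the dentate layer and lower in CA3 and cortical layer 6. On the opposite side it was at 92.6 CPM (86.7 to 98.7) in cortical layers 2 to 4, 76.4 CPM (59.0 to 97.4) in the dentate layer, 53.7 CPM (48.6 to 59.3) in layer 5 and 27.8 CPM (22.6 to 34.0) in CA3 on day 3. On day 28 the order was kept, at 87.1, 64.0, 50.6 and 29.0 CPM. The dentate layer did not differ from its neighbours in this order beyond the intervals, while CA3 lay below layer 5. Layer 6 was at 23.0 CPM (16.4 to 31.3) on day 3 and had 18 UMIs on day 28 (interval 9.48 to 25.3 CPM), below layer 5 and with intervals that overlap those of CA3. Slc30a3 was near the floor in thalamus, at 0.956 and 1.5 CPM, and low in striatum and white matter, at 4.44 and 2.26 CPM on day 3. In the layer 5 tiles of the injured side it was at 61.7 CPM on day 3 (0.21, -0.17 to 0.55) and 81.0 CPM on day 28 (0.68, 0.38 to 0.97). Tiles were given to layer 5 by its marker genes, so tissue that had lost these was not counted. At most 2.95% of the injured layer 5 bins lay in the zone. These ratios therefore cover layer 5 that kept its markers, and not layer 5 within the lesion.

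Slc30a10 was high in striatum and Slc39a14 in the dentate layer, but neither stood apart from the day 3 ependyma. Slc30a10 was at 44.7 and 48.2 CPM in striatum and 11.3 and 11.7 CPM in layer 5. Slc30a1 was at 61.2 and 62.6 CPM in striatum, and 30.4 and 35.6 CPM in CA3. Slc39a14 was at 92.8 and 67.6 CPM in the dentate layer and 26.0 and 27.5 CPM in striatum. In the day 3 ependyma Slc30a10 was at 41.8 CPM (24.8 to 66.0), against 44.7 CPM (37.6 to 52.7) in striatum, and Slc39a14 at 76.6 CPM (52.7 to 108), against 92.8 CPM (73.5 to 116) in the dentate layer.

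**Figure D4:**
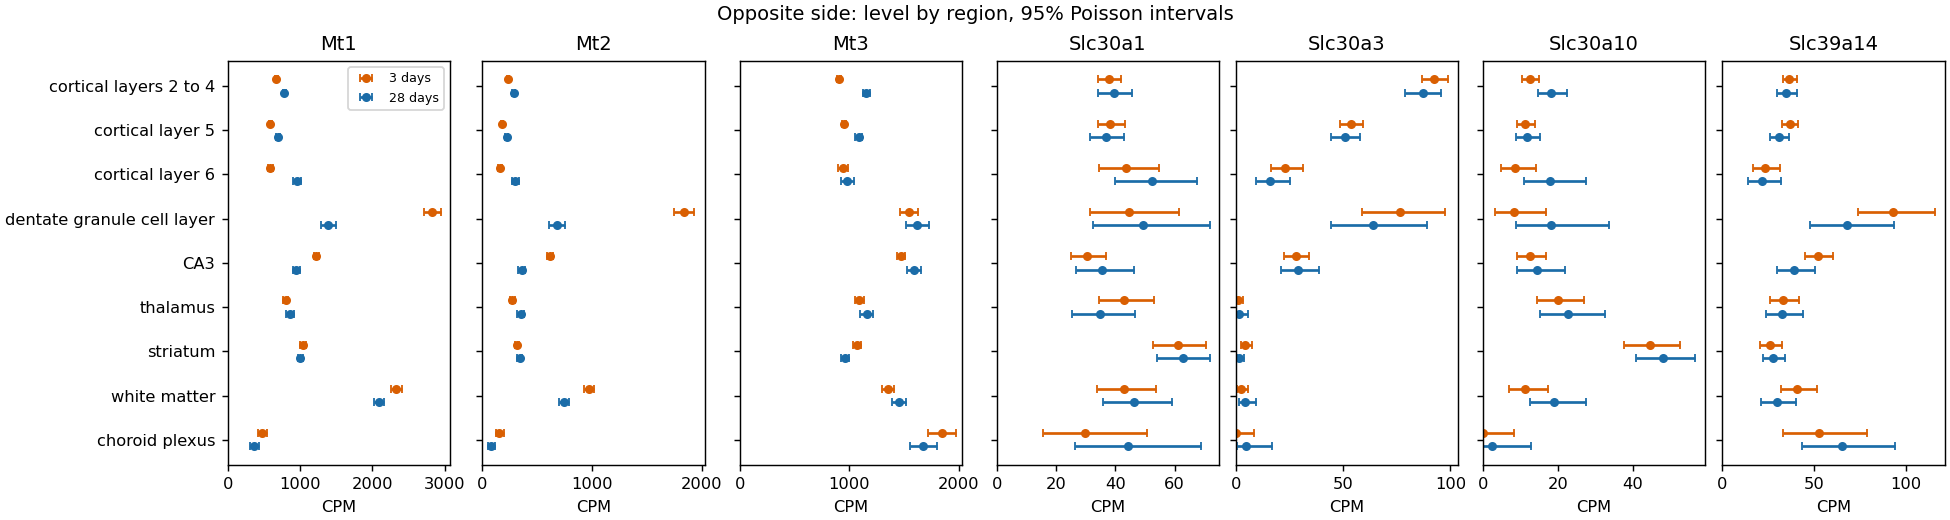
Level in CPM (linear axis, 1 panel and scale per gene) of each member in regions of the opposite side at 3 days (orange) and 28 days (blue), with 95% counting intervals. Ependymal and meningeal tiles are not plotted. Among the regions plotted Mt1 and Mt2 are high in white matter and, on day 3, in the dentate layer; Slc30a3 is high in cortical layers 2 to 4 and the dentate layer, and Slc30a10 in striatum.

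Within regions, member ratios above 0 were more frequent than over all genes. Ratios below 0 were near or under the share of all genes. Regional ratios take all bins of a region on each side, not bins at equal distances from the dividing column. On day 3 the array held 2.08 mm of the injured side and 4.62 mm of the opposite side. Layer 5 then had 53 against 391 tiles and striatum 78 against 255. Of 42 regional ratios of members with 20 or more UMIs, 15 had intervals above 0 and 4 below it on day 3, beside 11.6% and 9.31% over all genes. On day 28 it was 22 and 2 of 54, beside 8.23% and 7.83%. These shares were not matched for UMI number, on which the width of an interval depends. Striatal Mt1 was at 3253 against 1040 CPM on day 3 (1.65, 1.58 to 1.71) and 1726 against 1000 CPM on day 28 (0.79, 0.71 to 0.87). Striatal Mt2 on day 3 was at 1908 against 316 CPM (2.60, 2.49 to 2.70), and Slc30a10 there was at 18.0 against 44.7 CPM (-1.28, -2.03 to -0.66). In the same tiles the astrocyte sum had ratios of 1.06 and 1.10 on day 3 and day 28, the microglia and macrophage sum 1.89 and 1.48, and the neuron sum -0.53 and -0.14. The part of these cell types in the regional ratios was not tested. The zone took 55.4% and 20.8% of the injured striatum's bins. In striatum outside the zone the Mt1 ratio was 1.53 on day 3 and 0.45 on day 28. White matter Mt1 had ratios of 0.58 and 1.42, and outside the zone of -0.010 and 0.57. In layer 5, of which at most 2.95% lay in the zone, Mt2 was at 339 against 181 CPM on day 3 (0.91, 0.75 to 1.07) and 291 against 223 CPM on day 28 (0.39, 0.24 to 0.53). The astrocyte sum had 0.74 and 0.34 there, and the microglia and macrophage sum 1.52 and 0.95.

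Mt1 was lower on the injured side of some other regions, though member ratios below 0 were no finding beside the shares of all genes given above. It was at 687 against 799 CPM in thalamus (-0.22, -0.32 to -0.11) and 2127 against 2880 CPM in ependyma (-0.44, -0.56 to -0.31) on day 3. On day 28 it was at 813 against 952 CPM in layer 6 (-0.23, -0.40 to -0.055) and 291 against 365 CPM in choroid plexus (-0.33, -0.63 to -0.017), and with a looser region limit both intervals held 0 (-0.13, -0.29 to 0.028 and -0.24, -0.57 to 0.097). Thalamus on day 28 had a ratio of 0.63, 0.51 to 0.74. Mt3 was also lower in the day 3 ependyma, which had too few tiles for comparison under the looser limit, at 2320 against 3247 CPM (-0.48, -0.60 to -0.37).

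White matter tiles made up 35.3% of the zone and 10.9% of the mirror zone on day 3, and 19.6% and 22.0% on day 28. Without these tiles the lesion ratio of Mt1 was 1.38 on day 3 and 2.42 on day 28, and that of Mt2 1.94 and 3.02. Within them alone Mt1 had 0.60 and 1.63, and Mt2 0.81 and 1.97.

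Cell type markers were read in the same bins, each bin first thinned to 300 UMIs, which left out 1664 of 8522 lesion bins on day 3 and 4404 of 13559 on day 28. Bins with at least 2 astrocyte marker UMIs held more metallothionein than bins with none. Lesion Mt1 was at 4899 CPM with the markers and 2418 CPM without on day 3, and at 7380 and 3475 CPM on day 28. Opposite, in the mirror zone, Mt1 was at 3185 and 870 CPM on day 3, and 1939 and 1099 CPM on day 28.

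The lesion exceeded the mirror zone in bins with and without astrocyte markers. For this and the other marker lists, bins were not matched for the number of marker UMIs. Lesion bins with the markers may therefore hold more of them than mirror bins do. Among bins with astrocyte markers the log2 ratio of Mt1 was 0.62 (0.54 to 0.70) on day 3 and 1.93 (1.84 to 2.01) on day 28, and that of Mt2 1.12 (1.02 to 1.23) and 2.26 (2.13 to 2.40). Among bins without them Mt1 had 1.47 (1.35 to 1.60) and 1.66 (1.54 to 1.78), and Mt2 2.05 (1.86 to 2.25) and 1.99 (1.81 to 2.18). Mt3 had 0.53 (0.43 to 0.63) and 0.72 (0.62 to 0.82) with the markers, and 0.22 (0.080 to 0.36) and 0.38 (0.23 to 0.53) without.

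**Figure D5:**
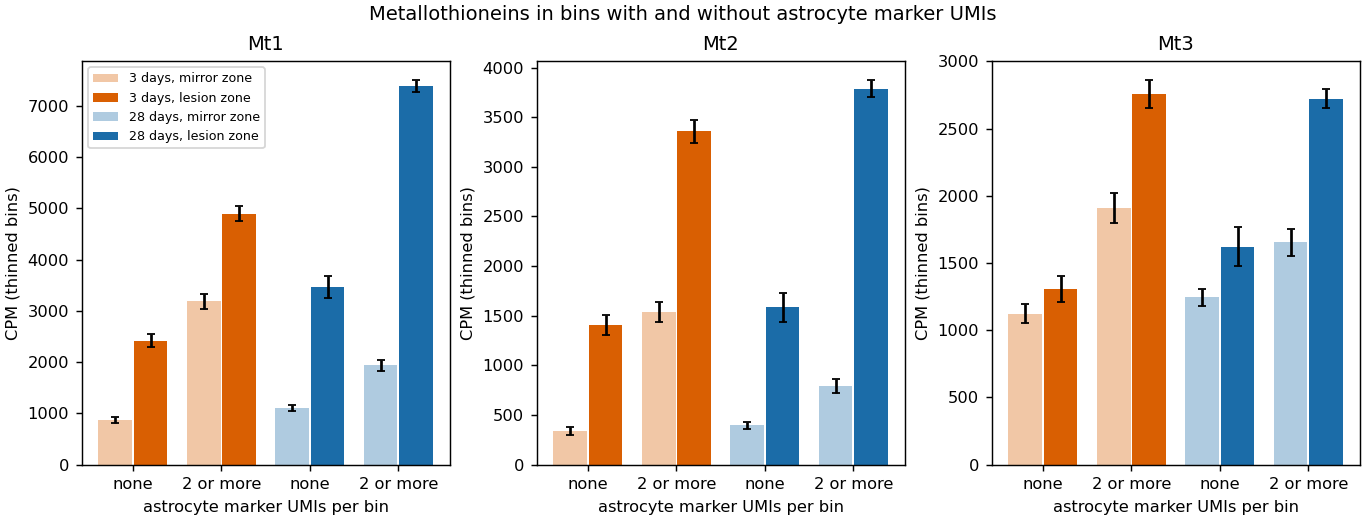
CPM (linear axes) of Mt1, Mt2 and Mt3 in bins thinned to 300 UMIs that held no astrocyte marker UMI or at least 2, in the lesion zone and the mirror zone at 3 days and 28 days, with 95% counting intervals. Within each kind of bin the lesion is higher, and within each zone the bins with markers are higher. Bins are not matched between the zones for the number of marker UMIs.

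Bins with microglia and macrophage markers (C1qa, C1qb, C1qc, Csf1r, Tyrobp, Fcer1g and Ctss) held more Mt1 than bins without in both mirror zones and in the day 28 lesion, but not in the day 3 lesion. On day 3 Mt1 was at 3703 CPM in lesion bins with at least 2 of their UMIs and 3821 CPM in bins with none, a ratio of -0.045 (-0.13 to 0.040). On day 28 it was at 7719 and 4438 CPM, a ratio of 0.80 (0.74 to 0.85). In the mirror zone it was at 3594 and 1358 CPM on day 3, a ratio of 1.41 (1.25 to 1.55), and at 2098 and 1324 CPM on day 28, 0.67 (0.35 to 0.97). Among bins with these markers lesion over mirror zone was 0.042 (-0.11 to 0.20) for Mt1 and 0.43 (0.21 to 0.66) for Mt2 on day 3, and 1.87 (1.58 to 2.20) and 2.17 (1.73 to 2.70) on day 28. Bins without them gave 1.49 (1.42 to 1.56) and 2.08 (1.98 to 2.18) on day 3. In day 3 bins with markers of fibroblasts and meninges (159 lesion and 53 mirror bins) the intervals held 0, at -0.16 (-0.71 to 0.43) for Mt1 and -0.15 (-0.77 to 0.53) for Mt2. Over lesion tiles the Spearman correlation of Mt1 with the microglia and macrophage markers was 0.092 on day 3 and 0.66 on day 28, and with the astrocyte markers 0.74 and 0.63, over 515 and 791 tiles that share a section and its depth. Summed, the 7 astrocyte markers were at 5879 CPM in the lesion and 3062 CPM in its mirror image on day 3 (0.94), and 10395 and 2655 CPM on day 28 (1.97). The 7 microglia and macrophage markers were at 2412 and 606 CPM (1.99), then 6540 and 322 CPM (4.34). On day 3 and day 28 the fibroblast and meninges sum had ratios of 2.36 and 2.55, endothelium 1.44 and 0.51, and mural cells 1.12 and 0.59. Oligodendrocytes had 1.41 and 0.038, ependyma 0.54 and 2.05, neurons -1.88 and -1.40, and choroid plexus -1.20 and -1.06. The part of any of these in the Mt1 ratio was not tested.

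Slc30a3 shared bins with neuron markers. On the opposite side it was at 54.7 CPM in bins with at least 2 neuron marker UMIs and 20.3 CPM in bins with none on day 3, a ratio of 1.42 (1.14 to 1.72), and on day 28 the ratio was 1.98 (1.45 to 2.60). Slc30a1 on day 28 was at 198 CPM in lesion bins with endothelial markers, on 7 UMIs, and 45.4 CPM without, a ratio of 2.22 (0.78 to 3.21). On day 3 that ratio was 1.54 (-0.045 to 2.61). The day 28 mirror zone was at 161 CPM of Slc30a1 with endothelial markers, on 4 UMIs, and 45.9 CPM without. In day 28 bins with these markers the log2 ratio of lesion over mirror zone was 0.23 (-1.68 to 2.52). For Slc39a14 and the microglia and macrophage markers the lesion ratio was 0.71 (0.12 to 1.26) on day 3 and 0.40 (-0.059 to 0.89) on day 28. Slc30a10 was higher in bins with astrocyte markers on the opposite side, by 0.71 (0.40 to 1.02) on day 3 and 0.64 (0.27 to 1.01) on day 28.

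The genes most like each member were sought among 10205 genes, by the mean over both sections of the Pearson correlation of log2(CPM + 50) over 1874 and 1616 tiles of 8 by 8 bins, which share a section and its depth. Mt1 and Mt2 had correlations of 0.91 and 0.93 with each other. Mt1 was most like Aqp4, the astrocyte water channel, at 0.79, Gfap, the astrocyte intermediate filament, at 0.79, and the tetraspanin Cd9 at 0.78. Mt2 was most like Gfap at 0.78, Aqp4 at 0.77 and Serpina3n, a protease inhibitor of reactive astrocytes, at 0.76. Mt3 was most like Clu at 0.60, Prdx6 at 0.59 and Aqp4 at 0.59.

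Slc30a3 was most like Nptxr at 0.70, Stx1a, a syntaxin of synaptic vesicle fusion, at 0.68, and Olfm1 at 0.68. Slc39a14 was most like Serpina3n at 0.35, Gpnmb at 0.31 and S1pr3 at 0.31. The nearest genes of Slc30a10 (Pnma8b, Hap1 and Rasgrp2) reached 0.28 and those of Slc30a1 (Dgkb, Penk and Cpne5) 0.15. The low correlations of these 3 transporters are not read as a finding.

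Other genes of zinc and copper handling were counted from a list of 30, of which 26 had enough UMIs at each time. On day 3, 5 of 26 were at least 2-fold higher in the lesion by the rule above and none was lower, beside the 17.3% and 8.47% of all genes. Slc39a1 (Zip1), a zinc importer of the plasma membrane, was at 298 against 110 CPM (1541 and 878 UMIs), Slc39a8 (Zip8) at 7.54 against 3.14 CPM (39 and 25 UMIs) and Slc39a11 (Zip11) at 39.0 against 18.6 CPM (202 and 148 UMIs). The copper pump Atp7b was at 5.22 against 2.13 CPM (27 and 17 UMIs) and Slc31a2, a copper transporter, had 229 and 159 UMIs (log2 ratio 1.15). On day 28, 6 of 26 were higher and none was lower, beside 16.3% and 8.05%. These were Slc39a1 at 184 against 70.5 CPM (1318 and 563 UMIs), Slc39a8 at 5.31 against 2.00 CPM (38 and 16 UMIs), Slc39a4 (Zip4), the zinc importer of the gut, at 7.40 against 0.876 CPM (53 and 7 UMIs), the copper pumps Atp7a at 64.8 against 31.3 CPM (464 and 250 UMIs) and Atp7b at 6.15 against 2.13 CPM (44 and 17 UMIs), with Slc31a2 at 286 and 144 UMIs (log2 ratio 1.15). The mirror value of Slc39a4 lay below the highest gene of the probe noise floor, 1.41 CPM, so the size of its ratio is uncertain. The median log2 ratio of the list was 0.37 on day 3 and 0.16 on day 28, and Mtf1, which encodes MTF-1, was at 0.37 and -0.14.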

How the data were processed

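The deposited files held raw UMI counts per gene and 16 µm bin, made by the authors with Space Ranger 4.0.1 per the file headers, from Visium HD probes on paraffin sections; the submitters' processing notes name mm10. There was 1 section per group, from 1 mouse, so no test between animals was possible. The members and gene lists were chosen with earlier results of these data known. Bins under 100 UMIs were left out. The lesion zone was the injured-side tiles (4 by 4 bins) whose smoothed share of the 6 phagocyte genes exceeded the 99th percentile of the opposite side, in patches of at least 25 tiles. Ratios were computed from pooled counts with 0.5 UMI added, with exact conditional binomial 95% intervals, and levels with exact Poisson intervals. Named genes were the members, listed metal-handling genes at least 2-fold different, and the 3 genes most like each member. A tile was given to a region when 1 marker list alone reached 0.35 of its scaled maximum, a rule set on marker maps alone; lists for CA1 and for amygdala and piriform cortex were dropped because their maps were not compact. Promoters came from RefSeq. The ratios and their intervals were tested on simulated zone sums that held counting error alone, and the other steps were not tested in this way. Python 3.11.15, numpy 2.4.6, scipy 1.17.1, pandas 2.3.3 and, for TMM scaling as an alternative, edgeR 4.0.16 were used. Other alternatives were the zone limit, the dividing column, the reference bins and unscaled UMIs per bin.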

Additional observations from a re-analysis of the deposited data

Results flagged for a closer look

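Mt1 and Mt3 lay on opposite sides of no difference at the 2 times in the band 500 to 1000 µm outside the lesion zone, and the difference between the times was not tested. The log2 ratio of the injured side over the mirrored band was 0.20 at 3 days and -0.18 at 28 days for Mt1, and 0.28 and -0.10 for Mt3. At 28 days the bands take in injured bins beyond the reach of the opposite side on the array. Mt3 also changed sign between the times when the sides were compared at equal distances from the dividing column without the zones, at 0.24 at 3 days and -0.029 at 28 days, again with no test of the difference.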

How the results depend on the processing

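No paired analysis was possible because each group had 1 section. In every setting tried the zone ratio of Mt1 lay between 0.60 and 1.94 at 3 days and 1.63 and 2.56 at 28 days, and that of Mt2 between 0.81 and 2.84 and between 1.97 and 3.12. Taking the largest patch alone or the median Gbx2 column gave identical zones. Counted as UMIs per bin, the 3 days zone ratio was 0.014 for Mt3, -0.071 for Slc30a1 and -0.13 for Slc39a14, and at 28 days -0.023 for Slc30a1; the 28 days side ratios were -0.12 for Mt3, -0.23 for Slc30a1, -0.32 for Slc30a10 and -0.054 for Slc39a14. Against all bins of the opposite side, the 3 days zone ratio of Slc30a1 was 0.14, the side ratios were -0.00027 for Slc30a1 at 3 days and 0.18 for Slc30a3 at 28 days, and 28 days minus 3 days was -0.037 for Slc30a3 and 0.63 for Slc30a10. With TMM scaling the side ratios were 0.10 and 0.033 for Slc30a1 at 3 and 28 days, and 0.051 for Slc39a14 at 3 days. With the zones left out they were 0.11 and 0.093 for Slc30a1, 0.082 and -0.036 for Slc39a14, and -0.029 for Mt3 at 28 days. With the dividing column moved towards the injured side, the side ratio of Slc30a10 at 3 days was -0.32 and of Slc30a3 at 28 days -0.070. Moved away, the 28 days zone ratios were 0.071 for Slc30a1 and -0.60 for Slc30a3, and the side ratio of Slc30a1 was 0.040. With a looser (95th percentile) or a stricter zone limit, Slc30a10 at 3 days had zone ratios of -0.11 and -0.70, with intervals that held 0. Zone bins with a mirror bin over tissue gave 0.17 for Slc30a1 at 28 days. In comparisons chosen after seeing the data, Slc30a1 within white matter tiles had 0.048 and 0.022 and Slc30a10 at 28 days -0.79, and outside them Slc30a10 at 3 days had -0.48; members with 3 or fewer UMIs in either zone were not given within white matter. Below 0 were 4 of 49 region ratios at 3 days and 2 of 63 at 28 days. With a looser region limit these were 2 of 56 and 0 of 70, with a stricter one 6 and 2, and with no minimum of UMIs per bin 5 and 2. In unthinned bins Slc39a14 with microglia and macrophage markers had 0.34 at 3 days and 0.49 at 28 days, and with astrocyte markers 0.78 at 28 days. At 1.5-fold the metal list had 9 genes higher and 2 lower at 3 days, and 9 higher and 2 lower at 28 days, beside 27.3% and 15.7% of all genes at 3 days and 22.6% and 17.3% at 28 days. With tiles of 4 by 4 bins, 11 of the 21 most alike genes were kept. The cause of these changes was not tested. Slc30a3 and Slc30a10 had the fewest UMIs of the members in the lesion, under 100 each at either time.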
